A study of Rattus norvegicus with 2 samples.

Results

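miR-146a and miR-146b are a pair of microRNAs (miRNAs) with the same seed, and here they were followed in rat tongue carcinoma and normal rat tongue. They were chosen by name, as rno-miR-146a, rno-miR-146b and rno-miR-155, 3 miRNAs linked to NF-kB. Rows of rno-miR-146a and rno-miR-146b were found, so 2 of the 3, out of 350 rat miRNAs on the array, are described, and miR-155 is not analysed here. The tumour arm consisted of male Sprague-Dawley rats, 6 to 7 weeks old at the start, that received the carcinogen 4NQO at 0.02 g/l by mouth, and the tumours were squamous cell carcinomas of the tongue. The normal tissue came from male rats of the same strain and age given distilled water, and each arm had 20 rats. Tissue was taken when week 36 ended, and RNA was prepared from 7 tumours and 7 normal tongues. The values come from 2 one-colour (Cy3) miRNA arrays, 1 for each arm, called here the tumour-labelled and the normal-labelled array. The sources used here do not state whether RNA of several animals was pooled, and each direction below holds as far as the array's label does. An exchange of the 2 labels cannot be told apart from a difference between the arms and would turn the sign of every ratio. No arm has a second array, so differences between arms have no replicate check and were not tested, and the errors below describe spots of 1 array.

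miRNAs are short RNAs that guide Argonaute proteins to messenger RNAs, mostly through pairing of the seed, bases 2 to 8 counted from the 5′ end. NF-kB is a transcription factor of inflammation that is switched on by Toll-like receptors and by the interleukin-1 receptor. It raises transcription of the miR-146a gene, and miR-146a in turn represses the adaptor proteins IRAK1 and TRAF6, which lie upstream of NF-kB, so the pair is known as a brake on this pathway. Both miRNAs are found in leukocytes and are also made by epithelial cells under inflammatory stimulation. These arrays measured the miRNAs and not NF-kB activity.

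The mature sequences are shown because the pair can be told apart only by bases near the 3′ end. They are from RefSeq, build GRCr8, and the seed is in capitals:
miR-146a-5p: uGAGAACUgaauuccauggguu
miR-146b-5p: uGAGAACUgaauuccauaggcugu
Both carry the seed GAGAACU, and among the 724 mature rat sequences of the RefSeq table these 2 were the ones with it. miR-146a-5p lies at chr10:28350053-28350074 on the minus strand and miR-146b-5p at chr1:255144874-255144897 on the plus strand, so the pair comes from separate genes. In the RefSeq annotation of that build, Mir146a lies within the span of the long noncoding RNA gene LOC134480673. Mir146b lies within the span of the protein-coding gene C1h10orf95. Whether either is exonic or intronic was not examined. Nfkb2, which encodes an NF-kB subunit, is a neighbour of Mir146b, with Psd, Fbxl15 and Cuedc2 between them.

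The pair is the same over its first 17 bases, and 20 of the 22 positions that both have are the same. The 2 differences are G18A and U21C, written as the base of miR-146a, the position from the 5′ end and the base of miR-146b. miR-146b has 2 further bases at its 3′ end.

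Each miRNA was read by 2 probes that differ in length by 1 base. The probes are shown because their similarity limits how far the pair can be separated. Capitals mark the probe bases that form no Watson-Crick pair with the other miRNA of the pair or lie past its end:
miR-146a, 19-base probe: aAccCatggaattcagttc
miR-146a, 20-base probe: aAccCatggaattcagttct
miR-146b, 20-base probe: ACaGccTatggaattcagtt
miR-146b, 21-base probe: ACaGccTatggaattcagttc
The probes are antisense to the 3′ part of the miRNA: the miR-146a probes start at its base 4 and base 3, and the miR-146b probes at its base 5 and base 4. Each probe meets the other miRNA with 2 mismatches, and the miR-146b probes have 2 further bases past the end of miR-146a. On the miR-146b probes both mismatches face a base of miR-146a that allows a wobble pair (T with G, G with U), while on the miR-146a probes 0 of the 2 do. The longest stretch of a probe that also pairs with the other miRNA is 14 and 15 bases for the miR-146a probes and 13 and 14 bases for the miR-146b probes. Signal of either miRNA can therefore reach the probes of the other, and its part in the values below was not tested. Against the other 934 probes of the array, the longest ungapped run shared with either mature sequence was 9 bases, with a probe of miR-184.

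Both miRNAs were detected on both arrays, but at low signal. Detection of a probe required over 50% of the spots used to pass the scanner software's own flag for signal well above background. Signals are the background-subtracted intensities of the software, on a linear scale. They were measured on 10 spots per probe and array, and 4 of the 80 spots of the pair that the software marked as outliers were left out.

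For miR-146a, the 20-base probe gave 87.3 ± 3.40 intensity units on the tumour-labelled array (spot SD, n = 9 spots), from 81.6 to 92.4 with a median of 88.4. On the normal-labelled array the same probe gave 99.0 ± 5.09 (n = 10 spots), from 91.4 to 106.4 with a median of 99.4. Before scaling, the 2 sets of spots thus lay close together and overlapped slightly. The 19-base probe gave 30.5 ± 3.37 units on the tumour-labelled array (n = 10 spots), from 25.5 to 36.5 with a median of 30.9. On the normal-labelled array it gave 31.6 ± 4.85 (n = 9 spots), from 23.4 to 37.9 with a median of 31.7. The spots of this probe overlapped over most of their range. All spots of both probes, 10 of 10 on each array, were well above background.

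For miR-146b, the 21-base probe gave 23.8 ± 2.60 intensity units on the tumour-labelled array (n = 9 spots), from 20.1 to 27.5 with a median of 23.1. On the normal-labelled array it gave 52.9 ± 3.71 (n = 9 spots), from 47.4 to 57.6 with a median of 52.2. The spots of the 2 arrays did not overlap, and all were well above background. The 20-base probe gave 11.0 ± 2.74 units on the tumour-labelled array (n = 10 spots), from 8.0 to 14.9 with a median of 10.3, and 0 of its 10 spots were well above background. On the normal-labelled array it gave 29.6 ± 3.72 (n = 10 spots), from 23.9 to 34.9 with a median of 30.7, and 10 of 10 were well above background. The spots of this probe did not overlap either, but on the tumour-labelled array its signal gives only an upper bound.

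The distance to background sets how firmly these values can be read. Negative control spots had a mean of 0.61 ± 3.04 units on the tumour-labelled array (SD, 655 spots) and 1.67 ± 3.02 on the normal-labelled array (642 spots), and the highest of them reached 11.2 and 11.8. Every spot of the miR-146a probes and of the 21-base miR-146b probe lay above the highest negative control spot of its array. On the tumour-labelled array the 20-base miR-146b probe did not: its mean was 3.42 negative control SDs above their mean, and 2 of the 655 negative control spots exceeded it. The 21-base miR-146b probe was 1.30 times as bright there as the dimmest detected probe, 18.3 units, against 2.90 times the dimmest on the normal-labelled array, 18.2 units.

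**Figure D1:**
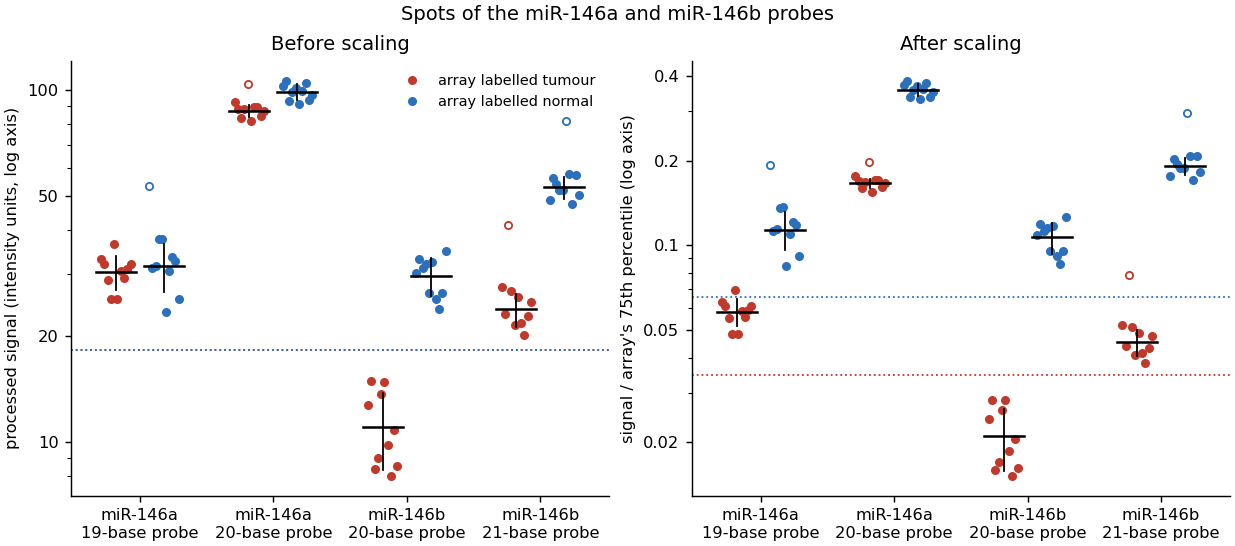
Signal of each spot (dots) for the 4 probes of miR-146a and miR-146b, in intensity units (left) and divided by the 75th percentile of each array (right), both on log axes. Bars are the mean and SD of the spots used, open circles the 4 spots marked as outliers, and dotted lines the dimmest detected probe of each array, at 18.3 and 18.2 units before scaling (the lines coincide). Before scaling the arrays overlap for miR-146a and separate for miR-146b, and after scaling they separate for all 4 probes.

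The arrays differed in overall brightness. The 75th percentile, taken over 140 probes that passed detection on each of the 2 arrays, was 1.89 times as high on the tumour-labelled array, 525.6 against 277.5 units, and each array was divided by its own. This shift equals 0.92 on the log2 scale, and any unscaled value includes it. Scaling moved miR-146a and miR-146b by the same amount.

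After scaling, both miRNAs were lower on the tumour-labelled array. miR-146a had a log2 ratio, labelled tumour over labelled normal, of -1.04 (spot SE 0.05, mean of 2 probes), or 2.05-fold lower. miR-146b had a log2 ratio of -2.07 (spot SE 0.06, 1 probe), or 4.21-fold lower. Both arrays measured 85 miRNAs. Among these 19 (22.4%) were at least 2-fold lower, and their median ratio was -0.46. In that order miR-146b was number 5 from the lowest and miR-146a number 18.

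The 2 probes of miR-146a gave similar ratios. The 20-base probe was at -1.10 (spot SE 0.03) and the 19-base probe at -0.97 (spot SE 0.09). They differed by 0.13, against a median of 0.05 and a maximum of 0.33 over the 55 miRNAs with more than 1 such probe. On both arrays each spot of a probe sits at the same position, so spots could also be compared position by position. After scaling, 9 of 9 positions were lower on the tumour-labelled array for each miR-146a probe, with log2 ratios from -1.18 to -1.07 for the 20-base probe and from -1.49 to -0.59 for the 19-base probe. Before scaling, 9 of 9 positions were lower for the 20-base probe, from -0.26 to -0.15, but 5 of 9 for the 19-base probe, from -0.57 to 0.33.

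miR-146b rests on the 21-base probe, for which 8 of 8 positions were lower, with log2 ratios from -2.33 to -1.75 after scaling and from -1.41 to -0.82 before it. The 20-base probe enters as a bound: on this probe the miRNA was at least 3.07-fold lower on the tumour-labelled array, from the mean on the normal-labelled array against the dimmest detected signal on the other, with measured scaled means of 0.0210 and 0.107. Even at this bound, the 20-base miR-146b probe lay further down than both miR-146a probes.

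After scaling, the spots of the tumour-labelled array lay wholly below those of the normal-labelled array for each of the 4 probes of the pair. Among the 140 probes detected on both arrays, which include 3 of these, it held for 71 (50.7%), so this separation was common on these arrays. Before scaling it held for 14 of the 140 probes (10%), among them the 21-base miR-146b probe and neither miR-146a probe.

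The size of both ratios depended on the scaling. Without scaling miR-146a was at -0.12 on the log2 scale, or 1.08-fold lower, and miR-146b at -1.15, or 2.22-fold lower. In that setting 5 of the 85 miRNAs (5.88%) fell below the same 2-fold line. When 19 positive control features set the scale, a setting added after the data were seen, miR-146a was at -0.19 and miR-146b at -1.22, with the same 5.88% at least 2-fold lower. With the skeletal muscle miRNAs left out of the percentile they were at -0.72 and -1.76, with 9.41% at least 2-fold lower. With the percentile over all probes they were at -0.55 and -1.59, with 8.24%. miR-146a was thus under 2-fold in these 4 settings. It was also under 2-fold when the median over probes detected on both arrays set the scale (-0.98, with 17.6% at least 2-fold lower). The same held for normexp with an offset of 50 (-0.88, with 9.41%), a background correction described below. miR-146a was at least 2-fold lower in 13 of the 19 alternatives run. miR-146b was at least 2-fold lower in all 19.

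The scanner software also gives a total signal per miRNA, summed over its probes, with an error from its own error model. For miR-146a this total was 78.1 ± 7.11 units on the tumour-labelled array and 86.6 ± 7.63 on the normal-labelled array, a log2 ratio of -0.15 ± 0.18 before scaling. For miR-146b it was 23.1 ± 3.98 and 54.8 ± 5.18 units, a log2 ratio of -1.24 ± 0.28. Before scaling, the miR-146a totals differed by less than that error and the miR-146b totals by more. The same totals make up the deposited value table.

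**Figure D2:**
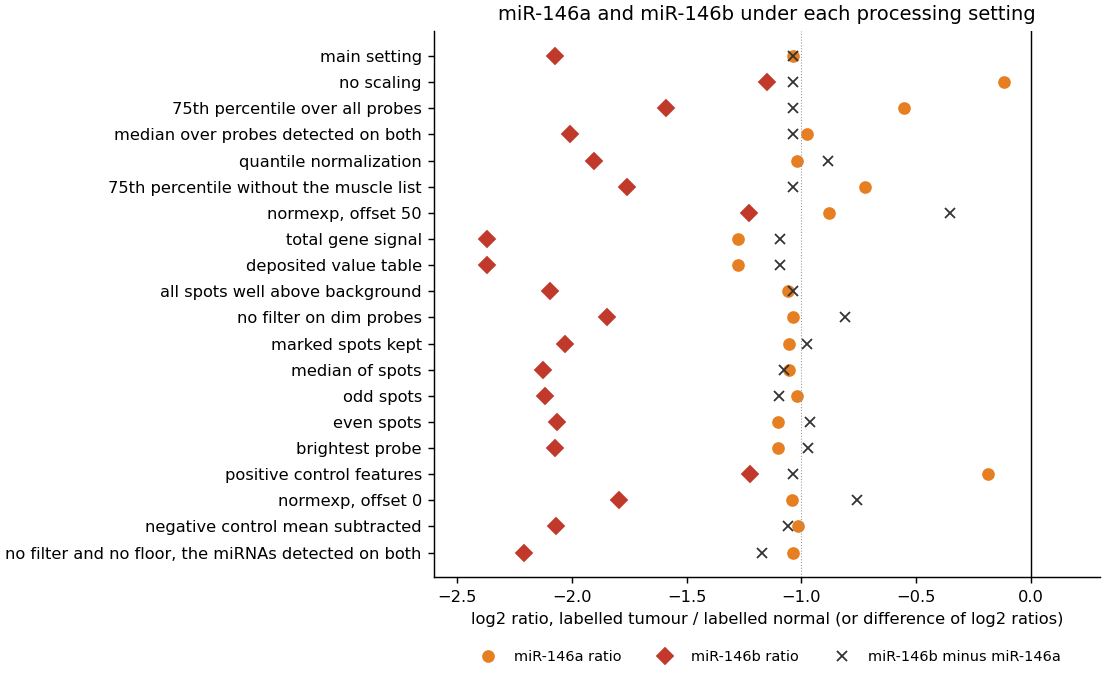
Log2 ratios of miR-146a (circles) and miR-146b (diamonds), labelled tumour over labelled normal, and their difference (crosses), on the horizontal axis under each processing setting listed on the vertical axis. The dotted line marks 2-fold lower. miR-146b stays at or beyond it, from -2.37 to -1.15, miR-146a runs from -1.28 to -0.12, and the difference keeps the value -1.04 under scalings by a common factor and shrinks to -0.35 with normexp at an offset of 50.

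Because the pair shares a seed, its difference was followed as a value of its own. A common scaling factor cancels in the difference of the log2 ratios. miR-146b was lower than miR-146a by a further 2.05-fold, a difference in log2 ratio of -1.04 (spot SE 0.08, within-array error only). Taken probe by probe, the 21-base miR-146b probe differed from the 19-base and 20-base miR-146a probes by -1.10 and -0.97. For the 20-base miR-146b probe only a bound can be given, and at the bound it differed from them by -0.65 and -0.52. These combinations share probes and arrays, so they are not independent.

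The difference was smaller with another background correction. With normexp, a model-based correction that never gives negative signals, and an offset of 50 units it was -0.35, with miR-146a at -0.88 and miR-146b at -1.23 and 9.41% of the 85 miRNAs at least 2-fold lower. That offset exceeds the signal of the 21-base miR-146b probe on the tumour-labelled array. With an offset of 0, added after the data were seen, the difference was -0.76.

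The pair was set beside other miRNAs that share a seed. By probe sequence, 304 of the 350 miRNAs on the array matched RefSeq mature sequences with 1 seed, and 76 of these were measured on both arrays. They formed 59 pairs with a shared seed, from 14 seeds. Measured miRNAs without such a match entered no pair, so the counts and ranks of shared-seed pairs cover matched miRNAs only. miR-99a (0.71) and miR-99b (-1.21), and also miR-30b-5p and miR-30d, entered no pair, so wider seeds can be missing from the order. The log2 ratios of the 59 matched pairs differed by a median of 0.34, and 10 of the 59 (16.9%) differed by 1 or more. miR-146a and miR-146b, at 1.04, were number 10 of these, just past that line. Their difference, miR-146b minus miR-146a, was at or below -1 in 12 of the 19 alternatives. Several of these 12 change only a common scaling factor, which cannot move the difference. The total gene signal and the deposited value table, also among the 12, hold the same values. The 12 are therefore not independent checks. The difference ranged over all 19 from -1.17 to -0.35, the latter with normexp at an offset of 50. Over all 3570 pairs of measured miRNAs, whatever their seed, the median difference was 1.10, and 52.8% differed by 1 or more. By the widest pair of each seed, the miR-146 seed was number 4 of the 14 seeds with matched pairs. Wider among the 14 were those of miR-1 and miR-206 (2.82), of miR-15b and miR-195 (1.75) and of miR-29b and miR-29c (1.36). Pairs of 1 seed share members, and the seed of let-7 and miR-98, with 8 measured miRNAs, gave more of the 59 pairs than any other. Probes can also pick up related miRNAs, and no test was made. The miR-146 seed was one of those with all measured members below 0 after scaling, while miR-15b and miR-195 lay on opposite sides of 0.

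**Figure D3:**
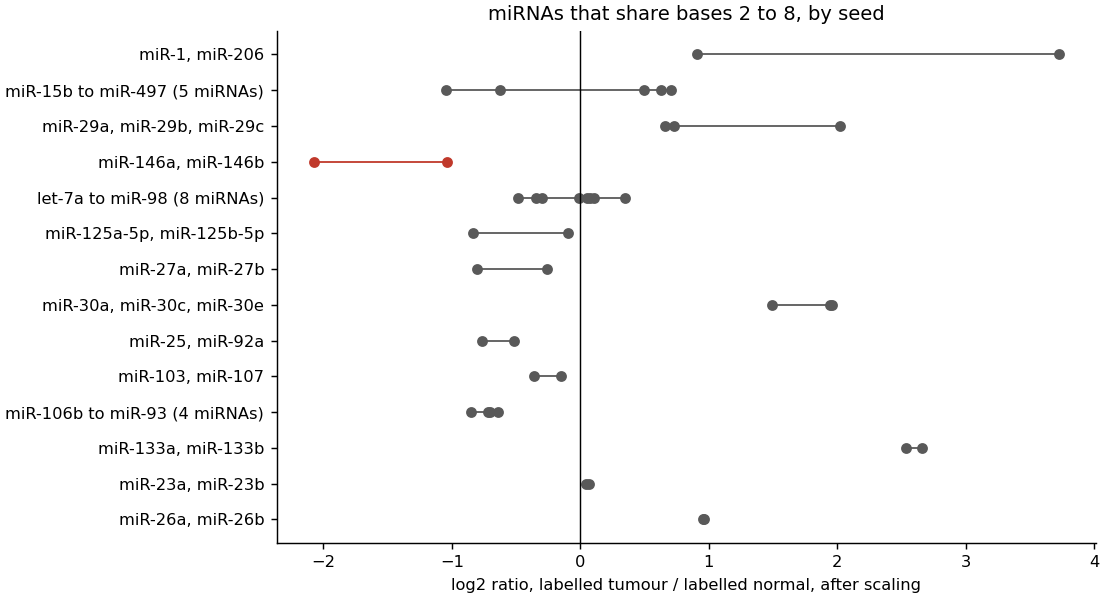
Scaled log2 ratios, labelled tumour over labelled normal (horizontal axis), of miRNAs that share bases 2 to 8, 1 line per seed, ordered by the widest difference. Only miRNAs matched to RefSeq by probe sequence are shown, so measured members of a seed can be missing. Dots are miRNAs and lines join the lowest and highest. miR-146a and miR-146b (red) lie at -1.04 and -2.07 and are number 4 by width of the 14 seeds shown.

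The miRNAs with ratios nearest to those of the pair were listed from the 85, over the 2 arrays. Nearest to miR-146a were the epithelial miRNA miR-205 (-1.04), miR-15b (-1.05) and miR-183 (-1.01), a miRNA of sensory and epithelial cells. The gaps to its neighbours in the order, miR-205 below and miR-183 above, were 0.0012 and 0.024 and within the spot error. Nearest to miR-146b were the blood cell miRNA miR-142-3p (-1.82), the myeloid miRNA miR-223 (-2.41) and miR-221 (-2.43). The 1 measured probe of miR-221 was the dimmest detected on the tumour-labelled array. For miR-146b the gaps to the neighbours were 0.34 to miR-223 below and 0.25 to miR-142-3p above. These gaps were larger than the spot SE of the gap, 0.07 and 0.09. With 2 arrays many miRNAs can share a ratio, so this is a description of these arrays.

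Other miRNAs linked to NF-kB or Toll-like receptor signalling were taken as a list, chosen with earlier results of these data known. Of the 18 that were on the array, 13 were measured on both arrays and 5 were detected on neither. Of all 350 miRNAs, 85 were measured on both arrays and 243 were detected on neither. A further 19 were detected only on the tumour-labelled array and 3 only on the normal-labelled array. Among the 13, 5 passed the 2-fold line downwards and 0 upwards, against 22.4% and 12.9% of all 85, and 11 had ratios below 0, against 53 of all 85. The list's median was -0.50, close to the -0.46 of all 85. The lowest were miR-31 (-3.93), which targets the NF-kB-inducing kinase NIK, miR-21 (-3.26), a miRNA raised by inflammatory signals and in many carcinomas, miR-221 (-2.43) and miR-223 (-2.41). All 4 lay below miR-146b in the order. The value of miR-221 rests on 1 probe, the dimmest one detected on the tumour-labelled array, at 18.3 units. miR-132, miR-9 and miR-147, which Toll-like receptor ligands induce in myeloid cells, were among those detected on neither array, so no ratio can be given for them. Without scaling the list split, with 8 of 13 ratios above 0 and 5 below, against 65 and 20 of all 85. In that setting 4 of the 13 were at least 2-fold lower and 1 at least 2-fold higher, against 5 and 28 of all 85. miR-146a and miR-146b were below 0 in that setting too.

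**Figure D4:**
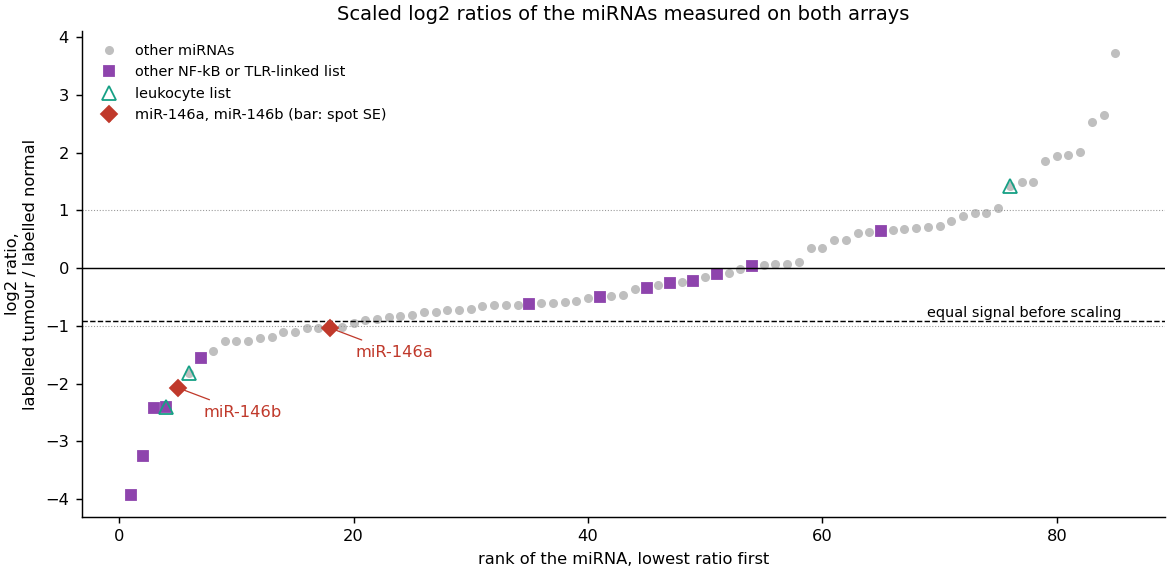
Scaled log2 ratios, labelled tumour over labelled normal (vertical axis), of the 85 miRNAs measured on both arrays, ordered from the lowest (horizontal axis, rank). Diamonds with spot SE are miR-146b (rank 5) and miR-146a (rank 18), squares the 13 measured miRNAs of the NF-kB list and triangles the 3 of the leukocyte list; the dashed line marks where signals were equal before scaling, and miR-146a lies just below it.

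Markers of cell types that can hold the pair moved between the arrays as well. Of 5 leukocyte miRNAs, 3 were measured on both arrays: miR-223 and miR-142-3p were lower on the tumour-labelled array, while miR-150, a miRNA of mature lymphocytes, was higher (1.43). Of all 85, 53 were below 0 and 32 above. Without scaling 2 of these 3 leukocyte miRNAs were below 0 and 1 above, from -1.49 to 2.35, against 20 and 65 of all 85. miR-142-5p and miR-342-3p were detected on neither array. The scaled level of the leukocyte probes detected on both arrays summed to 0.592 on the tumour-labelled array and 1.64 on the normal-labelled array. All 7 epithelial markers were measured, with ratios from -1.26 to -0.24 after scaling and levels that summed, in the same way, to 7.80 and 13.2. All 7 were thus below 0, against 53 of all 85, but without scaling 5 of the 7 were above 0, from -0.34 to 0.69, with a median of 0.31. Of 7 skeletal muscle markers, 5 were measured, and miR-499 and miR-208 were detected on neither array. All 5 were higher, from 0.91 to 3.72, with sums of 38.7 and 6.30, against 32 of all 85 above 0. Without scaling all 5 were above 0 as well, against 65 of all 85. Of the red blood cell markers, miR-451 was at 1.04 and miR-144 was detected on neither array. Epithelial and muscle markers were thus both present on both arrays, as tongue tissue holds. The high ratio of the muscle miRNA miR-1 (3.72) and the low ratios of miR-21 (-3.26) and miR-31 (-3.93) run against what is usual for an oral carcinoma beside normal tissue, and whether the 2 labels are exchanged was not tested. The part of these marker differences in the ratios of miR-146a and miR-146b was not tested either. In such bulk RNA, fewer cells of a type and less RNA per cell cannot be told apart.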

How the data were processed

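RNA of rat tongue was hybridised to Agilent one-colour miRNA arrays. Per the file headers, the authors extracted spot intensity with Agilent's software (Feature Extraction 10.5.1.1), which subtracted background and removed spatial trends. Per the labels, Cy3 was added with a kit meant for messenger RNA, and labelling of miRNA is not described. No step between arrays was applied to this deposited intensity. The value table repeats that software's total per miRNA, in intensity units, with 1 as its minimum.

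From these, unmarked spots were averaged per probe, divided by the array's 75th percentile over the probes detected by both, floored at the lowest detected signal and put on the log2 scale (Python 3.11.15, pandas 2.3.3, limma 3.58.1 for normexp). Ratios of probes that both arrays detected were averaged per miRNA. Calls are a rule of size, 2-fold, and not a test, and having 2 arrays limits the precision. The ratio steps were run on simulated data, made from the normal-labelled array with planted changes. A common shift was removed there before the check, so the choice of scaling was not tested. Normexp, the software's own detection flag and the sequence matching were not part of it.

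The members and lists were chosen with earlier results of these data known. Named miRNAs are the pair, the 3 nearest ratios to each, at most 4 measured miRNAs of each list, taken by absolute ratio, and sharers of the seed; list members detected on neither array, the widest seed pairs and the best-matching other probe are named besides, and were chosen after their values were seen. The alternatives were 15 planned and 4 added settings. Array names were matched to RefSeq by probe sequence. miR-155 is not analysed here.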

Additional observations from a re-analysis of the deposited data

How the results depend on the processing

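With 19 alternatives, miR-146a, miR-146b and their difference kept their sign in all. Leaving the scaling out gave -0.12 for miR-146a and -1.15 for miR-146b, with 5 miRNAs at least 2-fold lower and 28 higher, against 19 and 11. The percentile over all probes gave -0.55 and -1.59, with counts of 7 and 23. The percentile without muscle miRNAs gave -0.72 and -1.76, with 8 and 18. The positive control features, chosen after seeing the data, gave -0.19 and -1.22, with 5 and 27. These scalings shift all ratios by 1 amount, and the difference between the pair stayed at -1.04. Normexp with an offset of 50 gave -1.23 for miR-146b and -0.35 for the difference, with counts of 8 and 3, and an offset of 0, also added later, gave -1.80 and -0.76. The offset adds the same amount to dim and bright signals. The total gene signal and the value table each gave -1.28 for miR-146a and -2.37 for miR-146b. No filter on dim probes gave -1.85 for miR-146b, because the floor then stands in for its 20-base probe. For the offset of 0 and the total gene signal the cause was not tested. The other settings moved the ratios by less than 1 SD of spots, and the counts by less than 1.5 times. No paired analysis was possible because each group has 1 array. Signal over background limits miR-146b, near the detection limit on the tumour-labelled array.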
